A study of Mus musculus with 6 samples.

Results

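Of the 20129 genes in the table, 8 are genes by which B lymphocytes are commonly recognised: Cd79a, Cd79b, Ms4a1, Cd22, Blk, Ebf1, Pax5 and Ly6d. They were taken by symbol, and all 8 were found. The libraries are RNA sequencing of live (7AAD-) CD45+ CD11b+ cells sorted as microglia from brains of C57BL6/J mice aged 5 months. The groups were Il3-/-5xFAD, which lack the cytokine interleukin-3 (3 libraries, replicates 1, 2 and 3), and 5xFAD (3 libraries, replicates 4, 5 and 6). Both groups carry the 5xFAD transgenes, mutant human genes of familial Alzheimer's disease driven by the neuronal Thy1 promoter, so no library comes from a mouse without amyloid pathology. Each library pooled cells of 4 mice, 2 male and 2 female, so sex and single animals cannot be separated.

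B cells recognise antigen through a surface antibody that signals by way of a pair of membrane proteins, Ig-alpha (Cd79a) and Ig-beta (Cd79b). Src-family kinases such as Blk start the signal, Cd22 restrains it, and the transcription factors Ebf1 and Pax5 set up and hold the B cell programme. Few B cells are found in the healthy brain parenchyma, more lie in its meninges and blood, and most do not carry the CD11b used in the sort. Several of these genes are also used outside the lineage: Cd22 by microglia, Ebf1 by pericytes and fibroblasts, and Ly6d by some dendritic cell precursors.

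The genes fell into an abundant pair and 6 scarce genes. Levels are in CPM, counts per 1000000, and 1 read was worth 0.0266 to 0.0358 CPM. A gene was tested if 3 or more of the 6 libraries reached 1 CPM. Cd22 and Cd79b passed this filter, while Cd79a, Ms4a1, Blk, Ebf1, Pax5 and Ly6d did not. The floor was taken as 3 reads, which is 0.0798 to 0.107 CPM depending on the library. Pax5 lay at or under it in 5 of the 6 libraries and Ly6d in 3. Cd79a, Ms4a1, Blk and Ebf1 each lay at or under it in 1 library. Neither abundant gene was called at a limma adjusted p under 0.05 (0 of 2, against 0.882% of all tested genes). Only Cd22 had an unadjusted limma p under 0.05, with a lower level in Il3-/-5xFAD, as had 9.83% of all tested genes (16.5% in either direction). In bulk samples such as these, fewer cells of a type and less RNA per cell cannot be told apart.

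**Figure D1:**
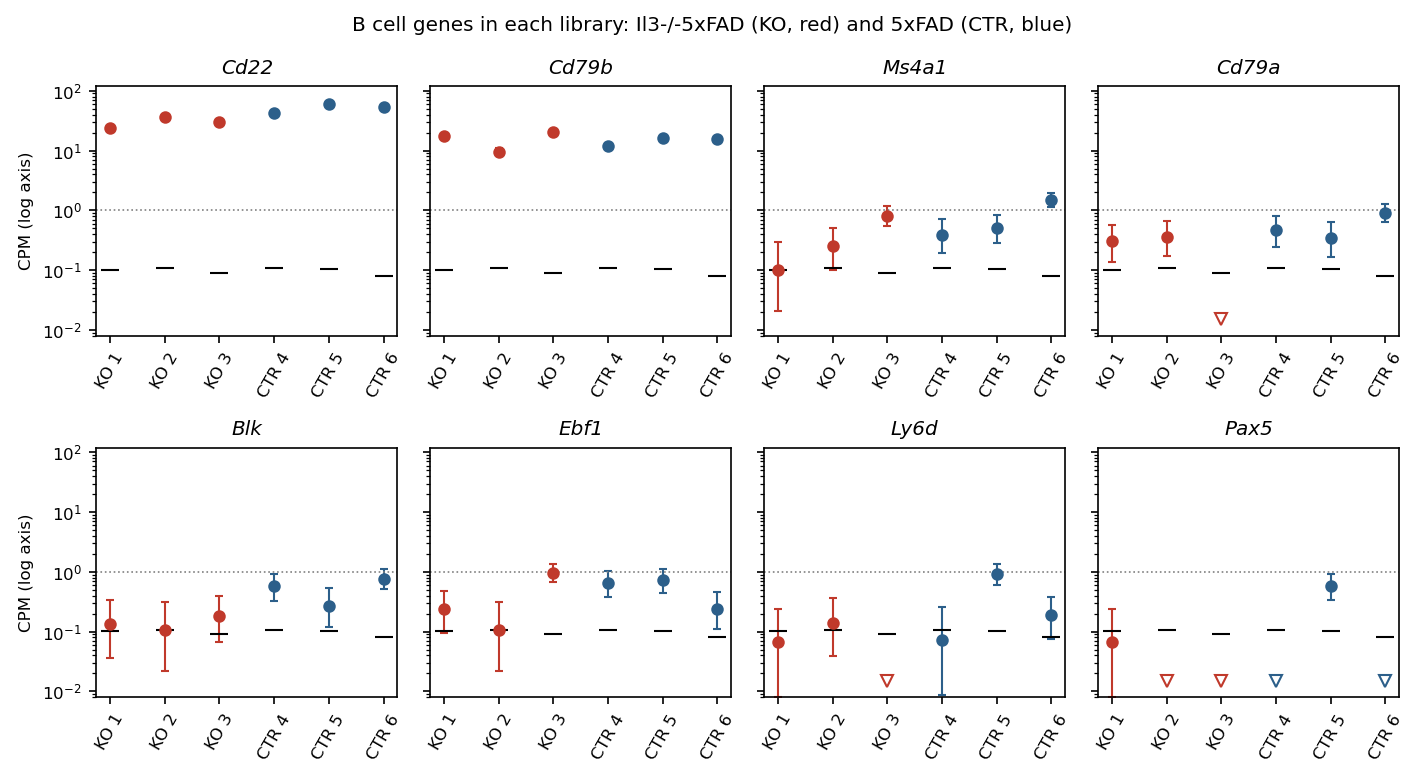
CPM on a log axis of the 8 genes in the 3 Il3-/-5xFAD libraries (red) and the 3 5xFAD libraries (blue), with exact Poisson 95% intervals of the read count as bars, the 3-read floor as black dashes, the 1 CPM filter as a dotted line, and libraries with 0 reads as open triangles at an arbitrary height. Cd22 and Cd79b lie between 9.62 and 60.2 CPM, and of the other 6 genes only Ms4a1 exceeds 1 CPM, in 5xFAD replicate 6.

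The sequences before the starts of Cd22 and Cd79a are shown as one abundant and one scarce gene of the group, Cd22 with 720 to 2028 reads per library and Cd79a with 0 to 34. Both come from the RefSeq promoter table of GRCm38.p6, another build than the mm9 named for the files, and the table held 4 of the 8 genes (Cd22, Cd79a, Ebf1 and Pax5). Cd79b, Ms4a1, Blk and Ly6d had no entry. Each is given 5′ to 3′ on the gene's strand and cut to the part upstream of the RefSeq start that touches no GENCODE exon. The Cd22 stretch, chr7:30879029-30879176 on the minus strand, ends at a RefSeq start that lies inside the gene as GENCODE draws it. The Cd79a stretch is chr7:24897247-24897380 on the plus strand. Capitals mark matches to TCCCNNGGG, the core of the EBF1 consensus, searched on both strands.
Cd22: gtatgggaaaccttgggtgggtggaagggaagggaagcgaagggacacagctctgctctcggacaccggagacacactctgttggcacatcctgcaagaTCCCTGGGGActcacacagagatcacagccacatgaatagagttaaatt
Cd79a: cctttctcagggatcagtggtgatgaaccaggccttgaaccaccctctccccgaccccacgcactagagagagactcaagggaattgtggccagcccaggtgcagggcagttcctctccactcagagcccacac

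In Cd22 the motif matched on both strands within the same run, its first base 49 bases before the start. The 300-base windows of Cd79a, Ebf1 and Pax5 held no match to these letters. Of all 32851 promoters in the table, 6.56% held a match in a window of this length, and of the 12123 genes of the CPM table with a promoter entry, 9.49% did. A match, or the lack of one, describes the letters alone, and a site that departs from them is missed by this search.

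Cd22 encodes a sialic acid-binding receptor with inhibitory motifs that dampens antigen receptor signalling in B cells, and in mice it is also made by microglia. Cd22 was at 24.2, 35.8 and 30.6 CPM in Il3-/-5xFAD replicates 1, 2 and 3, against 42.0, 60.2 and 53.9 CPM in 5xFAD replicates 4, 5 and 6. Every Il3-/-5xFAD library lay below every 5xFAD library, which 11.5% of all tested genes also did. The means were 30.2 ± 5.84 CPM in Il3-/-5xFAD and 52.0 ± 9.28 CPM in 5xFAD (SD, n = 3 each). The log2 difference was -0.77 ± 0.16 (SE, log2(CPM + 1) scale), with a 95% interval from -1.12 to -0.42, and the limma adjusted p was 0.0501, which did not pass. Of 16 alternative settings, all 16 gave a negative difference, from -0.91 to -0.62, and 4 gave an adjusted p under 0.05. Those were DESeq2 (adjusted p = 0.00116), edgeR's quasi-likelihood test without a filter (adjusted p = 7.74e-06), and limma without Il3-/-5xFAD replicate 3 (adjusted p = 0.0451) or without 5xFAD replicate 4 (adjusted p = 0.0192). Without 5xFAD replicate 6 the limma adjusted p was 0.272, and edgeR with TMM factors and the filter gave an adjusted p of 0.0762. The call therefore depended on the setting. The direction was the same in every setting run, but this adds little to the separation of the groups. With every Il3-/-5xFAD library below every 5xFAD library, leaving out 1 library could not reverse the sign.

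The tested genes whose log2 levels lay nearest to those of Cd22 over the 6 libraries were Pdcd1, the gene of the inhibitory receptor PD-1, with a Pearson correlation of 0.994, Fabp5, a fatty acid-binding protein gene, with 0.991, and the growth factor gene Igf1, with 0.991. Of all tested genes, 77 had a correlation with Cd22 over 0.95. Pdcd1 was at 18.7, 27.6 and 24.0 CPM in Il3-/-5xFAD replicates 1, 2 and 3, against 36.0, 52.5 and 51.0 CPM in 5xFAD replicates 4, 5 and 6. Its log2 difference was -0.96 ± 0.17 (SE), and it fell in Il3-/-5xFAD (limma adjusted p = 0.0288). Igf1 also fell, by 1.27 on the log2 scale (limma adjusted p = 0.0438), and Fabp5 had -1.37 ± 0.29 (SE; limma adjusted p = 0.0510). These correlations include the difference between the genotypes and carry no test. The 3 genes were picked for their likeness to Cd22, whose groups did not overlap. Their lower levels in Il3-/-5xFAD therefore follow from that choice and add no separate evidence on Cd22.

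Other receptors of the sialic acid-binding family had small differences. Of 6 tested genes of that list none passed by limma, at either the adjusted or an unadjusted threshold of 0.05, and all 6 differences were positive, with a median of 0.06. Siglech, a microglial receptor, was at 1113 ± 29.7 CPM in Il3-/-5xFAD and 1091 ± 15.5 CPM in 5xFAD, and Cd33 at 288 ± 25.7 CPM in Il3-/-5xFAD and 277 ± 8.36 CPM in 5xFAD (SD, n = 3 each). The difference between Cd22 and these genes was itself not tested.

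**Figure D2:**
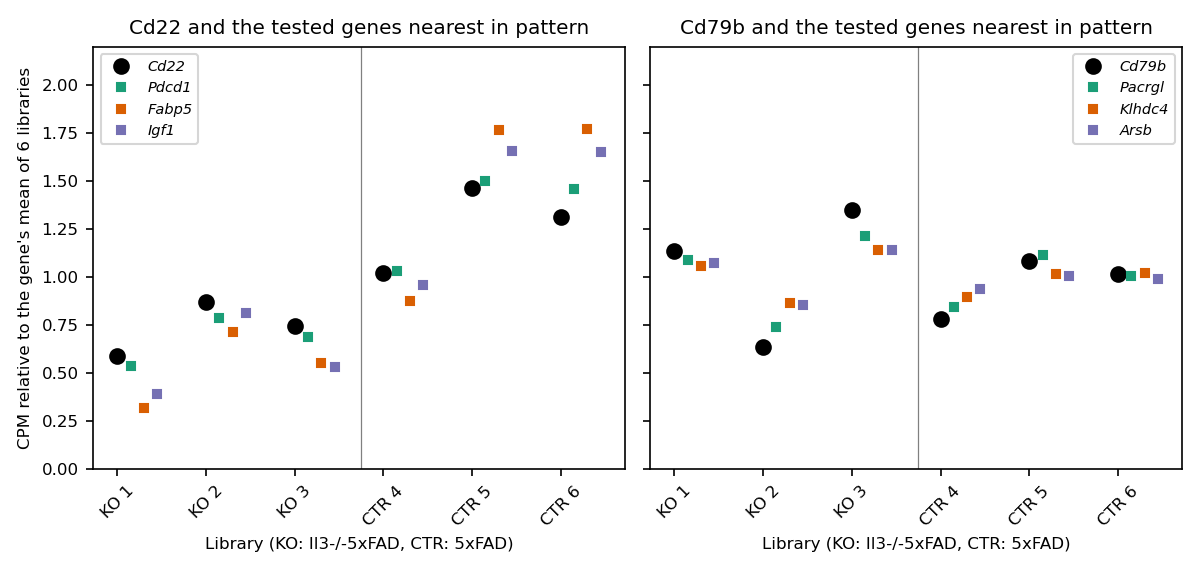
CPM of Cd22 (left) and Cd79b (right) and of the 3 tested genes nearest to each in pattern, each divided by the gene's mean over the 6 libraries, with 1 symbol per library and Il3-/-5xFAD left of 5xFAD in each panel. Cd22 and its neighbours are lower in every Il3-/-5xFAD library than in any 5xFAD library, while Cd79b and its neighbours are lowest in Il3-/-5xFAD replicate 2 and highest in Il3-/-5xFAD replicate 3.

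Cd79b, the Ig-beta chain, had 17.2, 9.62 and 20.4 CPM in Il3-/-5xFAD replicates 1, 2 and 3, against 11.8, 16.4 and 15.4 CPM in 5xFAD replicates 4, 5 and 6. The 5xFAD libraries all lay within the range of the Il3-/-5xFAD libraries. The means were 15.7 ± 5.55 CPM in Il3-/-5xFAD and 14.5 ± 2.43 CPM in 5xFAD (SD, n = 3 each). The log2 difference was 0.06 ± 0.24 (SE, log2(CPM + 1) scale; limma adjusted p = 0.933). The 95% interval of the difference ran from -0.46 to 0.58. The genes nearest to Cd79b in pattern were Pacrgl (Pearson correlation 0.992), Klhdc4 (0.985) and the lysosomal sulfatase gene Arsb (0.978), and 14 tested genes had a correlation over 0.95.

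Cd79a, the partner that Ig-beta needs at the surface of B cells, was scarce. It had 9, 10 and 0 reads in Il3-/-5xFAD replicates 1, 2 and 3 (0.302, 0.355 and 0 CPM), against 13, 10 and 34 in 5xFAD replicates 4, 5 and 6 (0.465, 0.342 and 0.904 CPM). The groups overlapped. The count of 0 in Il3-/-5xFAD replicate 3 allows up to 0.0909 CPM. Per kilobase of the longest GENCODE transcript, Cd79b averaged 11.0 CPM in Il3-/-5xFAD and 10.2 CPM in 5xFAD, and Cd79a 0.150 CPM in Il3-/-5xFAD and 0.391 CPM in 5xFAD. The chains of the B cell receptor complex were therefore not measured at like levels in these libraries, and Cd79b did not follow Cd79a from library to library: Il3-/-5xFAD replicate 3 held the most Cd79b and no Cd79a.

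Ordered by mean level per kilobase, Cd79b came first in Il3-/-5xFAD at 11.0 CPM and Cd22 next at 7.60 CPM, and in 5xFAD Cd22 came first at 13.1 CPM and Cd79b next at 10.2 CPM. Their ranges overlapped in both groups, with Cd22 from 6.08 to 9.02 and Cd79b from 6.72 to 14.3 CPM per kilobase in Il3-/-5xFAD, and Cd22 from 10.6 to 15.2 and Cd79b from 8.24 to 11.5 CPM per kilobase in 5xFAD. The other 6 genes followed with a gap. In Il3-/-5xFAD they averaged 0.150 (Cd79a), 0.127 (Ms4a1), 0.0937 (Ly6d), 0.0731 (Ebf1), 0.0606 (Blk) and 0.00280 CPM per kilobase (Pax5). In 5xFAD the order was Ly6d at 0.529, Cd79a at 0.391, Ms4a1 at 0.263, Blk at 0.232, Ebf1 at 0.0892 and Pax5 at 0.0242 CPM per kilobase. Among these 6 genes, neighbours in either order overlapped between libraries, except Blk and Pax5 in Il3-/-5xFAD, whose ranges were 0.0458 to 0.0782 and 0 to 0.00839 CPM per kilobase.

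Ms4a1 encodes CD20, the surface protein used to define mature B cells. It had 3, 7 and 27 reads in Il3-/-5xFAD replicates 1, 2 and 3 (0.101, 0.249 and 0.818 CPM), against 11, 15 and 57 in 5xFAD replicates 4, 5 and 6 (0.393, 0.513 and 1.52 CPM). The high library of each group lay well above the other two of its group, and the groups overlapped. With reads pooled over each group, Ms4a1 was 0.465 times as high in Il3-/-5xFAD as in 5xFAD (exact 95% interval 0.307 to 0.693, for counting error only). Without 5xFAD replicate 6 that ratio was 0.896, and without Il3-/-5xFAD replicate 3 it was 0.197. Its reads varied between libraries of the same group 11.2 times as much as counting error gives in Il3-/-5xFAD and 14.7 times in 5xFAD, as the chi-square of the reads per degree of freedom. Of the other Ms4a genes, none of 6 tested passed by limma and 3 had an unadjusted p under 0.05, where the share over all tested genes was 16.5%. All 6 differences were negative, with a median of -0.42. The 3 were Ms4a4b (log2 difference -0.92 ± 0.27, SE), Ms4a4c (-0.82 ± 0.27) and Ms4a7 (-0.65 ± 0.28), with limma adjusted p from 0.106 to 0.265. The most abundant, Ms4a6b and Ms4a6d, which are genes of myeloid cells, had -0.08 ± 0.10 and -0.19 ± 0.10 (SE).

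Blk encodes a Src-family kinase of B cells that is also found in some gamma-delta T cells and plasmacytoid dendritic cells. It had 4, 3 and 6 reads in Il3-/-5xFAD replicates 1, 2 and 3 (0.134, 0.107 and 0.182 CPM), against 16, 8 and 29 in 5xFAD replicates 4, 5 and 6 (0.572, 0.273 and 0.771 CPM). All Il3-/-5xFAD libraries lay below all 5xFAD libraries. The same held for 7.3% of genes that failed the filter but had at least 10 reads over the 6 libraries. The pooled ratio was 0.256 (exact 95% interval 0.128 to 0.476, for counting error only), and without 1 library it ran from 0.208 to 0.341. Its reads varied 0.313 times as much as counting error gives in Il3-/-5xFAD and 3.65 times in 5xFAD. The edgeR quasi-likelihood test without a filter gave an adjusted p of 0.608, and limma without a filter an adjusted p of 0.316. The other kinases of the Src family were read at far higher levels. Of 7 tested only the T cell kinase gene Lck passed by limma, lower in Il3-/-5xFAD, where 0.882% of all tested genes were called. An unadjusted limma p under 0.05 was reached by 4 of the 7, against 16.5% of all tested genes. Beside Lck these were Fgr (log2 difference -0.79 ± 0.19, SE, limma adjusted p = 0.0685), Fyn (-0.35 ± 0.14, limma adjusted p = 0.244) and Yes1 (0.37 ± 0.12, limma adjusted p = 0.135). Lyn, the main family member of microglia and B cells, had a log2 difference of 0.08 ± 0.08 (SE).

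Ebf1 and Pax5 are the transcription factors that commit cells to the B lineage. Ebf1 had 7, 3 and 32 reads in Il3-/-5xFAD replicates 1, 2 and 3 (0.235, 0.107 and 0.970 CPM), against 18, 21 and 9 in 5xFAD replicates 4, 5 and 6 (0.644, 0.718 and 0.239 CPM). Il3-/-5xFAD replicate 3 held the highest value of all 6 libraries and the groups overlapped. The pooled ratio was 0.913 (exact 95% interval 0.588 to 1.41, for counting error only), and it was 0.341 without Il3-/-5xFAD replicate 3 and 1.23 without Il3-/-5xFAD replicate 2. Mural cell markers moved unlike each other beside it: over the whole list of 12 genes in the table, summed levels ran from 14.8 to 27.7 CPM in Il3-/-5xFAD and from 16.6 to 34.4 CPM in 5xFAD, and of 8 tested genes Myh11 and Tagln rose by limma while 6 did not pass. With an unadjusted p under 0.05 were 6 of the 8. Among these the smooth muscle gene Acta2 (log2 difference 1.24 ± 0.30, SE, limma adjusted p = 0.0734) was positive like Myh11 and Tagln, while the pericyte genes Cspg4 (-1.65 ± 0.38, limma adjusted p = 0.0611), Vtn (-0.93 ± 0.30, limma adjusted p = 0.143) and Kcnj8 (-0.82 ± 0.31, limma adjusted p = 0.205) were negative. In Il3-/-5xFAD replicate 3, which held the most Ebf1, Kcnj8 had its lowest value of the 6 libraries, 0.273 CPM. Pdgfrb (1.70 CPM), Rgs5 (4.24 CPM) and Tagln (5.58 CPM) were highest in that library, but no other mural gene of the list was. Cspg4 had 4.09 CPM there against up to 18.0 CPM in 5xFAD, and Tbx18 had 0 CPM. The fibroblast gene Col1a1 was highest there, at 2.03 CPM, but no other fibroblast gene of the list was. Col1a2 had 0.940 CPM there against 1.01 to 1.78 CPM in 5xFAD, and Pdgfra and Lum had 0 CPM. Fibroblast genes summed to 1.38 to 3.61 CPM in Il3-/-5xFAD and 2.72 to 4.75 CPM in 5xFAD, and the 1 tested, Col1a2, did not pass (limma adjusted p = 0.287). Of 7 tested endothelial genes none passed by limma, and 2 had an unadjusted p under 0.05. Mural cells, fibroblasts and endothelial cells carry neither CD45 nor CD11b, so the sort is set to remove them. Their part in the Ebf1 reads was not tested. A relative, Ebf3, was far more abundant than Ebf1, at 54.4 ± 2.79 CPM in Il3-/-5xFAD and 49.5 ± 3.54 CPM in 5xFAD (SD, n = 3 each; limma adjusted p = 0.540).

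Pax5 had 2, 0 and 0 reads in Il3-/-5xFAD replicates 1, 2 and 3, against 0, 17 and 0 reads in 5xFAD replicates 4, 5 and 6. All 17 reads of the 5xFAD group came from replicate 5 (0.581 CPM). A count of 0 leaves room for 0.107 CPM in Il3-/-5xFAD replicate 2 and 0.0909 CPM in replicate 3, and for 0.107 CPM in 5xFAD replicate 4 and 0.0798 CPM in replicate 6. The pooled ratio was 0.123 (exact 95% interval 0.0138 to 0.517, for counting error only), but without 5xFAD replicate 5 the gene had no read in 5xFAD and the direction turned. GENCODE places exons of 2 other genes opposite Pax5, and no source used here says whether the counting used strand. Its relatives Pax2, Pax6 and Pax8 were all below the filter.

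Ly6d encodes a small surface protein that appears on the earliest committed B cell progenitors. It had 2, 4 and 0 reads in Il3-/-5xFAD replicates 1, 2 and 3 (0.0672, 0.142 and 0 CPM), against 2, 27 and 7 in 5xFAD replicates 4, 5 and 6 (0.0715, 0.923 and 0.186 CPM). As with Pax5, 5xFAD replicate 5 stood above the rest. The pooled ratio was 0.174 (exact 95% interval 0.0599 to 0.417, for counting error only), and 0.481 without 5xFAD replicate 5. The 0 in Il3-/-5xFAD replicate 3 leaves room for 0.0909 CPM. Of its relatives in the Ly6 family, 4 were tested. The monocyte gene Ly6c2 fell by limma, and Ly6e and Ly6a had log2 differences of -0.19 ± 0.11 and -0.09 ± 0.22 (SE).

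By edgeR's quasi-likelihood test without a filter, no scarce gene of the 6 had an adjusted p under 0.05. There the adjusted p ran from 0.608 (Ly6d and Blk) to 0.957 (Ebf1) and 4.04% of all genes were called. Limma without a filter called none of them either, with 1 unadjusted p under 0.05 (Blk) and none by edgeR. Summed over these 6 genes, the libraries held 27, 27 and 65 reads in Il3-/-5xFAD replicates 1, 2 and 3, against 60, 98 and 136 in 5xFAD replicates 4, 5 and 6. The group ranges were 0.907 to 1.97 CPM in Il3-/-5xFAD and 2.15 to 3.62 CPM in 5xFAD. The read sums overlapped, with 65 in Il3-/-5xFAD replicate 3 and 60 in 5xFAD replicate 4, while the CPM sums of the same libraries, 1.97 and 2.15, were narrowly apart. Different genes made up the sums in different libraries. In Il3-/-5xFAD replicate 3, Ms4a1 and Ebf1 gave 59 of the 65 reads, while Cd79a, Pax5 and Ly6d had none. That library also held the fewest genes with a read, 14435, against 15740 to 17245 in the other libraries.

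**Figure D3:**
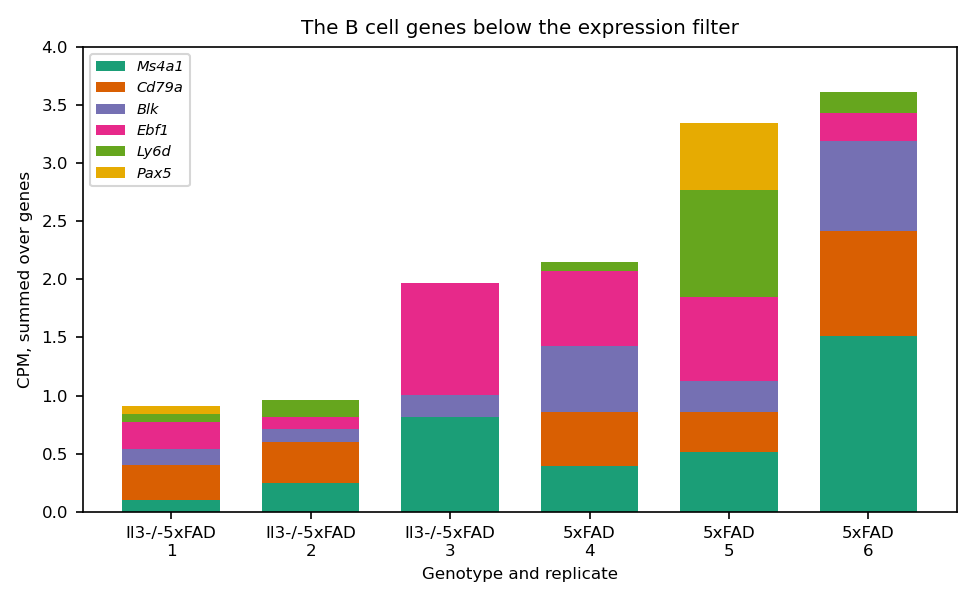
Stacked CPM of the 6 B cell genes that failed the expression filter, with 1 bar per library, Il3-/-5xFAD on the left and 5xFAD on the right. The bars reach 0.907 to 1.97 CPM in Il3-/-5xFAD and 2.15 to 3.62 CPM in 5xFAD, and the share of each gene differs from library to library.

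Other defining B cell markers also lay at very unlike levels. The complement receptor gene Cr2 and the low-affinity IgE receptor gene Fcer2a had between 0 and 8 reads in every library. Ighm, the heavy chain of IgM, was at 302 ± 19.1 CPM in Il3-/-5xFAD and 314 ± 34.6 CPM in 5xFAD (SD, n = 3 each; limma adjusted p = 0.838). The light chain gene Igkc was at 1.95, 9.23 and 2.06 CPM in Il3-/-5xFAD replicates 1, 2 and 3, against 5.47, 17.5 and 8.99 CPM in 5xFAD replicates 4, 5 and 6, with overlap between the groups (limma adjusted p = 0.209). Igj, the joining chain of secreted IgM and IgA, had nearly the same values, at 1.51, 8.06 and 2.73 CPM in Il3-/-5xFAD replicates 1, 2 and 3 and 5.61, 17.7 and 10.7 CPM in 5xFAD replicates 4, 5 and 6 (limma adjusted p = 0.149). Both antibody genes were highest in 5xFAD replicate 5, whereas Ms4a1 and Cd79a were highest in 5xFAD replicate 6.

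Beyond the 8 genes, 70 other genes of the B lineage were listed by role, of which 61 were in the table and 43 were tested. None of the 43 passed by limma, 8 had an unadjusted p under 0.05, near the 16.5% of all tested genes, and their median log2 difference was 0.00, as over all tested genes. By edgeR with TMM factors none passed either, while DESeq2 called 2 and edgeR without a filter called 5. These 2 tests called more genes in general, 605 by DESeq2 and 813 by edgeR without a filter (4.04% of 20129), against 105 by limma. Of surface and antibody genes, 10 were tested, with 9 negative differences and a median of -0.10. The most abundant were Cd37, a tetraspanin gene of leukocytes, at 449 ± 10.4 CPM in Il3-/-5xFAD and 458 ± 9.81 CPM in 5xFAD (SD, n = 3 each), and Ighm. Of 9 transcription factors, 6 differences were positive and 3 negative, with a median of 0.02. Irf8 and Ikzf1, which microglia share with B cells, had log2 differences of 0.02 ± 0.08 and 0.12 ± 0.08 (SE). Of 5 genes of early B and plasma cells, 3 differences were positive and 2 negative, with Xbp1 and Prdm1 the most abundant (0.10 ± 0.10 and 0.13 ± 0.15, SE). Of 19 genes of receptor signalling, 11 differences were positive and 8 negative, with a median of 0.03. Cd81, a tetraspanin gene, was at 1314 ± 95.8 CPM in Il3-/-5xFAD and 1483 ± 13.3 CPM in 5xFAD (limma adjusted p = 0.357), and the inositol phosphatase gene Inpp5d at 1175 ± 40.8 CPM in Il3-/-5xFAD and 1034 ± 19.9 CPM in 5xFAD (limma adjusted p = 0.287; SD, n = 3 each).

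The calls by other tests were of Cd24a, a surface glycoprotein gene of B cell precursors and granulocytes (log2 difference -1.05 ± 0.30, SE, limma adjusted p = 0.105), and of the Ikaros-family gene Ikzf3 (-1.0 ± 0.25, SE, limma adjusted p = 0.0767), both called by DESeq2 and by edgeR without a filter. Cd72, Igj and Igkc were called by edgeR without a filter alone. All 5 were lower in Il3-/-5xFAD in those tests, and they are named here because their counts are small. Ikzf3 is also a gene of T cells, and Cd24a of neutrophils.

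**Figure D4:**
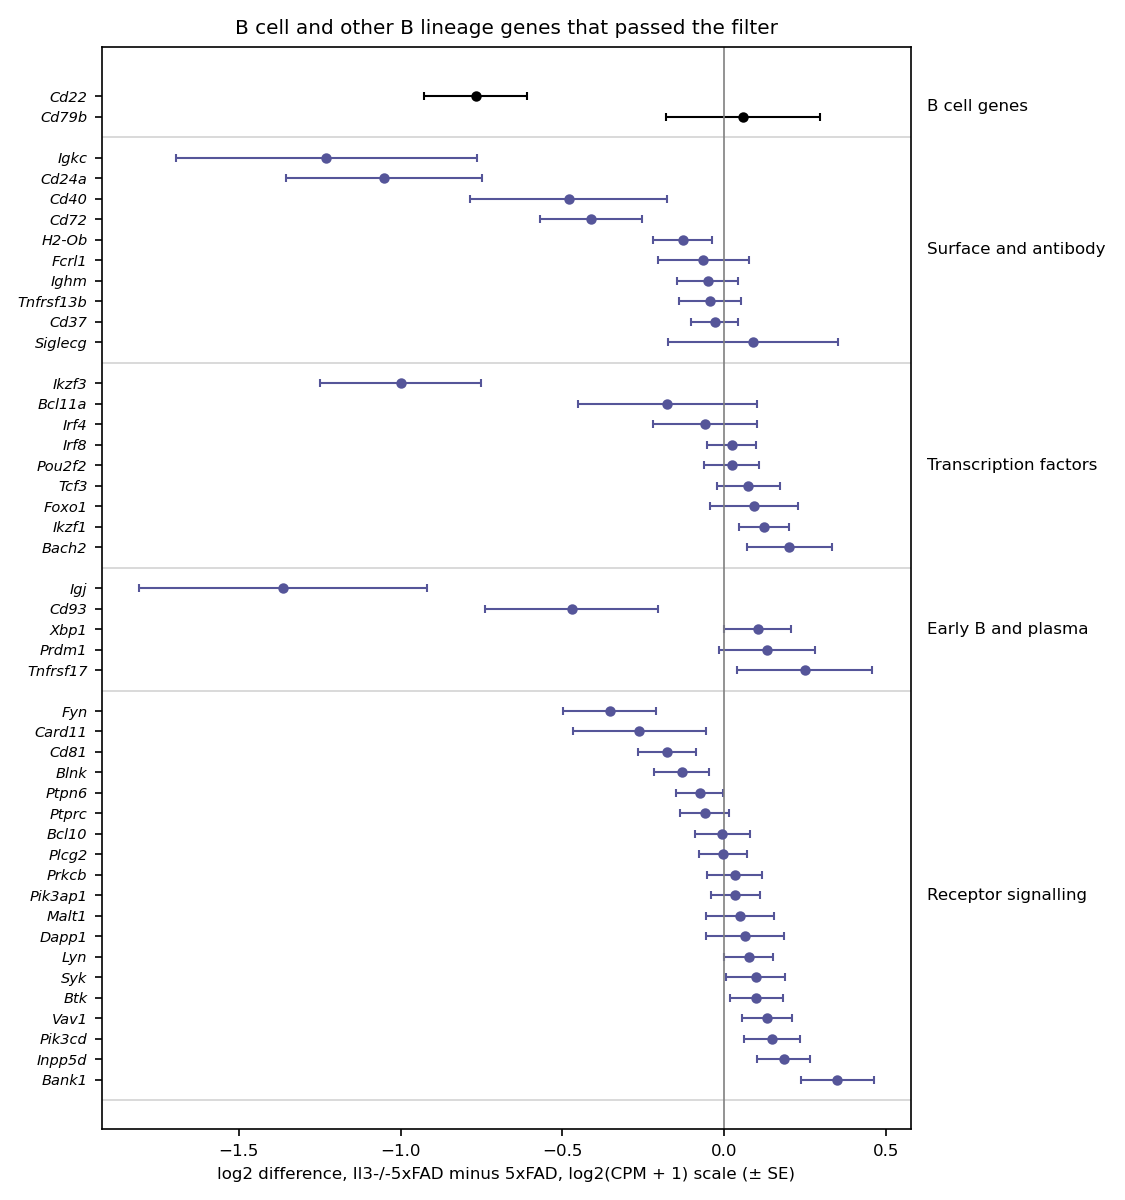
Log2 differences, Il3-/-5xFAD minus 5xFAD on the log2(CPM + 1) scale, of Cd22 and Cd79b (black) and of 43 tested genes of the other B lineage lists (blue), with the limma SE as bars. Most genes lie near 0, and Igj, Igkc, Cd24a, Ikzf3 and Cd22 lie farthest to the left.

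Markers of T cells, neutrophils and monocytes had lower levels in Il3-/-5xFAD. All 12 tested T cell genes, all 9 tested neutrophil genes and all 6 tested monocyte genes had negative differences. An unadjusted limma p under 0.05 was reached by 9, 9 and 5 of them, against 16.5% of all tested genes. The share of all tested genes called by limma was 0.882%. Of 12 tested T cell genes, Cd3d, Cd3g and Lck fell by limma, and the summed level of the list ran from 47.4 to 53.7 CPM in Il3-/-5xFAD and from 83.9 to 172 CPM in 5xFAD, highest in 5xFAD replicate 6. Of 9 tested neutrophil genes 5 fell, and the list summed to 204 to 786 CPM in Il3-/-5xFAD and 1167 to 3097 CPM in 5xFAD, highest in 5xFAD replicate 5. Of 6 tested monocyte genes, Ly6c2 and Gda fell, and the list summed to 67.0 to 128 CPM in Il3-/-5xFAD and 129 to 188 CPM in 5xFAD. None of 8 tested plasmacytoid dendritic cell genes passed (2 with an unadjusted p under 0.05), and Siglech and Lair1, the most abundant, are also expressed by microglia. None of 2 tested gamma-delta T cell genes, Maf and Sox13, passed. Maf made up nearly all of that list's summed level. It was at 520 to 665 CPM of a sum of 525 to 671 CPM in Il3-/-5xFAD. In 5xFAD it was at 520 to 562 CPM of a sum of 526 to 566 CPM. Il17a was at 0, 0.320 and 0 CPM in Il3-/-5xFAD replicates 1, 2 and 3 and at most 0.0798 CPM in 5xFAD. The 9 microglial genes summed to 35108 to 38457 CPM in Il3-/-5xFAD and 34035 to 35932 CPM in 5xFAD, and none passed (2 with an unadjusted p under 0.05). The part of these cells in the levels of the B cell genes was not tested.

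Ebf1 and Cd79b lie on chromosome 11, which also carries Il3. In the RefSeq order 67 tested genes separate Ebf1 from Il3, of which 1 was called by limma, and 547 separate Cd79b from Il3, of which 14 were called. Over all 11900 tested genes 105 were called (0.882%), a smaller share than between Cd79b and Il3. The 1 call between Ebf1 and Il3 is too few to compare. The reason for the larger share was not tested. Neither Ebf1 nor Cd79b differed between the genotypes beyond the spread of its libraries. The targeted gene itself had 0 reads in each Il3-/-5xFAD library, against 54, 61 and 29 reads in 5xFAD replicates 4, 5 and 6.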

How the data were processed

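The deposited table held CPM values made by the authors for 20129 genes in 6 libraries, and each column summed to 1000000. STAR, HTSeq, edgeR and the build mm9 are named in the submitters' processing notes without versions. Its annotation, strand setting and filters were not given in the sources used here. Every CPM value was a whole multiple of 1 read (100% of values, tolerance 0.01 reads), so reads were recovered, 27970850 to 37605490 per library.

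The main test was limma 3.58.1 (R 4.3.3; lmFit, eBayes with a trend, two-sided) on log2(CPM + 1), Il3-/-5xFAD minus 5xFAD, on the 11900 genes that reached 1 CPM in 3 or more libraries, with Benjamini-Hochberg adjustment over all of them. The filter leaves 6 of the 8 B cell genes without a p from this test. Their values come with exact Poisson or exact conditional binomial 95% intervals, which cover counting error only, since reads without molecular identifiers are not independent molecules, and with the limit that a count of 0 allows (3 reads). Alternatives were other pseudocounts, filters and scalings, edgeR 4.0.16 and DESeq2 1.42.0 on recovered reads, and leaving out each library. The limma, edgeR and DESeq2 steps were tested on simulated reads.

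Named were the 8 genes, in every other list the called genes or else the 2 most abundant, the 3 tested genes nearest in pattern to each tested B cell gene, and the defining B cell markers Cr2, Fcer2a, Ighm and Igkc. Some genes under this rule are not reported here. Igj, Il17a, the mural, Ms4a and Src-family genes named for an unadjusted p, and the genes called by other tests alone were chosen after their values were seen. So were Pdgfrb, Rgs5, Tbx18, Col1a1, Pdgfra and Lum. The members and lists were chosen with earlier results of these data known. Lengths and exon overlaps came from GENCODE M21 (GRCm38). Of the 50-base stretches of the Cd79a transcript 8.31% also occur in other genes, of Cd22 0.611%, and of the other 6 none. GENCODE also places an exon opposite Cd22. Replicates were pools of mice, and no pair of libraries in a group differed as little as counting error gives (a chi-square of at least 22.1 per degree of freedom).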

Additional observations from a re-analysis of the deposited data

How the results depend on the processing

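No paired analysis was possible because the groups share no replicate number. The number of B cell genes called was 0 by the main limma test and in 12 of 16 alternatives, and 1 (Cd22) by edgeR without a filter and by DESeq2; without 1 library it ran from 0 to 1. Of the other B lineage genes, 0 were called in the main test, 5 by edgeR without a filter and 2 by DESeq2, and 0 to 1 without 1 library (Cd24a without Il3-/-5xFAD replicate 1). Over all tested genes the count was 105 in the main test, 8 with no filter, 68 with a filter on a mean of 5 CPM, 65 with median-ratio rescaling, 10 without the variance trend, 60 by edgeR with TMM factors, 69 by edgeR with library totals only, 813 by edgeR without a filter and 605 by DESeq2, and it ran from 11 (without 5xFAD replicate 6) to 587 (without Il3-/-5xFAD replicate 3) without 1 library. The cause of these moves was not tested. Cd79b had differences of -0.03, -0.15 and -0.07 without Il3-/-5xFAD replicate 1, Il3-/-5xFAD replicate 3 and 5xFAD replicate 4, with limma adjusted p from 0.755 to 0.979. Without 1 library its difference ran from -0.15 to 0.36. Depth limits Pax5 and Ly6d most, where a change of 3 reads in a library is 0.0798 to 0.107 CPM.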
